A study of Mus musculus with 9 samples.

Results

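The neural splicing regulators described here are 10 genes of the PTBP, NOVA, RBFOX, MBNL and SRRM4 groups, namely Ptbp1, Ptbp2, Nova1, Nova2, Rbfox1, Rbfox2, Rbfox3, Srrm4, Mbnl1 and Mbnl2. They were chosen by name, 1 row each, among the 48526 gene rows of the count table, and all 10 passed the filter on low counts that left 18858 genes for testing. The RNA-seq experiment followed adult neural stem cells (NSCs) that had been isolated from the subependymal zone (SEZ) of C57BL/6 wild-type mice (C57BL/6J in the study's methods) and grown as neurospheres with EGF and FGF. Cells were collected undifferentiated (0 h), and 1 h and 6 h into differentiation, which was induced on an adhesive substrate without EGF and with FGF kept. For cells that were fixed at early times the methods state a day of seeding in medium with EGF beforehand, and whether this held for the cells used for RNA is not given in the sources used here. Each time point had 3 libraries, numbered as replicates 1 to 3, which gave 9 libraries of stranded mRNA. No allele or agent other than these distinguished the groups. These cultures model the start of differentiation of dividing NSCs outside their niche, and RNA was taken from whole cultures.

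Proteins of these families bind pre-mRNA and decide which exons are joined. PTBP1, the polypyrimidine tract-binding protein of dividing cells, represses many exons that neurons include, and its paralog PTBP2 takes its place in neuronal precursors before it declines in mature neurons. NOVA, RBFOX and SRRM4 (nSR100) promote neuronal exons, SRRM4 above all very short ones, and MBNL proteins move splicing towards patterns of differentiated cells. miR-124, a neuronal microRNA, lowers PTBP1, and REST, a repressor of neuronal genes, holds down the miR-124 genes and Srrm4.

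PTBP and MBNL genes carry short alternative exons through which these proteins act on their own transcripts and on those of their paralogs, and those exons are shown because whole-gene counts cannot see their use. In GENCODE M21 (GRCm38), the exon of Ptbp1 at chr10:79862014-79862047 on the plus strand has 34 bases, and so has that of Ptbp2 at chr3:119724612-119724645 on the minus strand. As 34 is not a multiple of 3, a transcript that skips this exon is out of frame. Among transcripts annotated as coding or as targets of nonsense-mediated decay that span the exon, 3 of 5 held it in Ptbp1 and 3 of 5 in Ptbp2, and the 2 without it were annotated as targets of nonsense-mediated decay in both genes. PTBP1 is known to repress this exon of Ptbp2. The corresponding exon of Mbnl1 (chr3:60614683-60614736) and that of Mbnl2 (chr14:120395712-120395765), both on the plus strand, have 54 bases, keep the frame, and are known to favour a nuclear location of the protein. They were held by 4 of 10 transcripts of Mbnl1 and 3 of 6 of Mbnl2. In the lines that follow, which read 5′ to 3′, capitals mark the exon and lower case marks 20 bases of the exon on either side.
Ptbp1: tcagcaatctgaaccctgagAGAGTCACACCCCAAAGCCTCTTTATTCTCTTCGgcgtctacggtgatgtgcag
Ptbp2: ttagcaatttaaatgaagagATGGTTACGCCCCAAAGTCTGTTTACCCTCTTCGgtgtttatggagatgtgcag
Mbnl1: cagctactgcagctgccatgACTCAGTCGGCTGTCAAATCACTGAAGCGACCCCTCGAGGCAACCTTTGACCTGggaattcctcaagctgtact
Mbnl2: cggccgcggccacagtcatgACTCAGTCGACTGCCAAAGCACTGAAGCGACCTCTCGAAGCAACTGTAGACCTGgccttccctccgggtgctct
Ptbp1 and Ptbp2 had the same base at 26 of the 34 positions, and Mbnl1 and Mbnl2 at 46 of 54. All values below sum the transcripts with and without these exons, so they measure the amount of RNA of each gene and not its splicing.

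Libraries held between 65871454 and 105592597 counts. Levels are given as CPM, counts scaled to the library size after TMM normalisation. Libraries with the same replicate number deviated together, and each comparison is therefore given without and with the replicate number as a block. Adjusted p-values are from the quasi-likelihood test of edgeR, over all 18858 genes, with a threshold of 0.05, and n = 3 libraries per time point. Because RNA came from bulk cultures, fewer cells of a type and less RNA per cell cannot be told apart.

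At 6 h, Ptbp2 and Mbnl1 stood at 0.819 and 0.741 of their levels at 0 h, Rbfox2 was 1.19 times as high, and Rbfox3 was 2.35 times as high from a low level, each in 3 of 3 replicates. Nova1 was also lower, at 0.903 of its level at 0 h, and Ptbp1, Nova2, Rbfox1, Srrm4 and Mbnl2 did not pass the threshold. None of these differences passed the threshold when the replicate number was left out of the fit. Without the block, 0 of 10 members were called at 6 h against 0 h, where 2.42% of all tested genes were called, and 3 had an unadjusted p under 0.05. With the block, 2 of 10 were called higher (17.4% of all genes) and 3 of 10 lower (17.5% of all genes), and 6 had an unadjusted p under 0.05. Counts of 2 and 3 among 10 members lie near these shares of all genes. Shares of all genes at an unadjusted p under 0.05 are not given here or below. Counts at that unadjusted p therefore have no background to be read against. DESeq2 called 2 members without the block (Ptbp2 and Mbnl1), where it called 1742 genes in all. With the block it called the same 5 as edgeR, where it called 6126 genes in all.

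**Figure D1:**
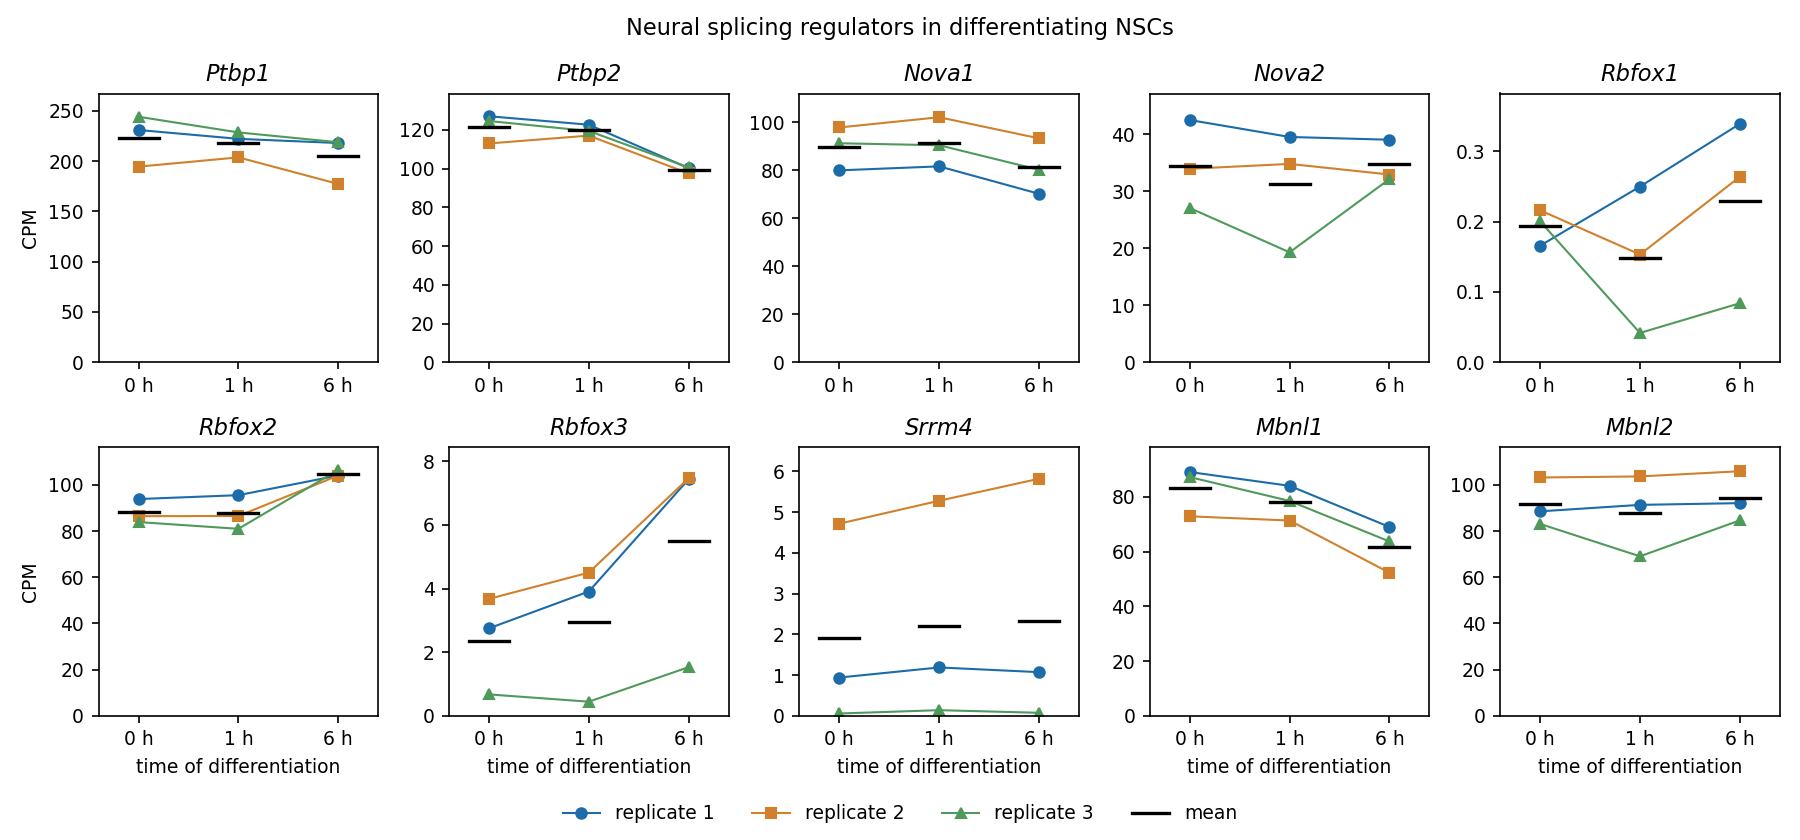
CPM (vertical axis, from 0) of each of the 10 genes by hours of differentiation (horizontal axis, evenly spaced time points). Points joined by lines are libraries of the same replicate number and black bars are means of 3 libraries. Ptbp2 and Mbnl1 lie lower at 6 h in all 3 replicates, Rbfox2 and Rbfox3 higher, and replicate 2 has by far the highest Srrm4 at every time point.

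Ptbp1 was the most abundant of the group per kb of exon. It had 231, 194 and 244 CPM in replicates 1, 2 and 3 at 0 h, 222, 204 and 228 CPM at 1 h, and 218, 177 and 219 CPM at 6 h. The ranges of 0 h and 6 h overlapped, with replicate 2 lowest at each time, and each replicate was lower at 6 h than at 0 h. The log2 fold change at 6 h was -0.12 ± 0.11 (SE, adjusted p = 0.659) without the block and -0.12 ± 0.05 (adjusted p = 0.0682) with it. With library trends in the GC content and length of each gene's longest transcript also removed, it became -0.21 (adjusted p = 0.0027), which passed the threshold. Without 1 h replicate 3 it passed as well (adjusted p = 0.0221 with the block). The gene (ENSMUSG00000006498, chr10:79854427-79864771) shares exon bases with E130317F20Rik and Plppr3 on the opposite strand, and the strand setting of the counting is not given in the sources used here, so reads of these genes cannot be told apart with certainty.

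Ptbp2 had 127, 113 and 125 CPM at 0 h, 123, 117 and 119 CPM at 1 h, and 100.4, 97.5 and 100.6 CPM at 6 h. The 3 values at 6 h lay below all 6 values of the earlier times, and their means were 121 ± 7.49 (SD, n = 3) at 0 h and 99.4 ± 1.69 at 6 h. The log2 fold change at 6 h against 0 h was -0.29 ± 0.07 (SE, adjusted p = 0.0611) without the block and -0.29 ± 0.05 (adjusted p = 0.000454) with it, a fall to 0.819 of the level at 0 h. With library trends in GC content and length also removed, the log2 fold change of Ptbp2 with the block was -0.21 (adjusted p = 0.00499). In individual replicates the ratio of 6 h to 0 h was 0.789, 0.863 and 0.808. Ptbp2 also differed little between replicates, and only 7.37% of the tested genes had a smaller SD between replicates.

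The number of Ptbp2 reads for each Ptbp1 read is independent of library scaling. It was 0.550, 0.581 and 0.510 at 0 h, 0.552, 0.574 and 0.522 at 1 h, and 0.460, 0.550 and 0.460 at 6 h in replicates 1, 2 and 3. The ratio was lower at 6 h in each replicate, but replicate 2 at 6 h lay within the range of 0 h. On the log2 scale the mean was -0.87 ± 0.09 (SD, n = 3) at 0 h and -1.04 ± 0.15 (n = 3) at 6 h, a difference of -0.16 with a two-sided exact permutation p of 0.2, where the smallest p that 3 against 3 libraries allow is 0.1. Between 1 h and 0 h it differed by 0.0079 (two-sided exact permutation p = 0.9). Within replicates 1, 2 and 3 the log2 ratio changed from 0 h to 6 h by -0.26, -0.08 and -0.15, a mean of -0.16 ± 0.09 (SD, n = 3), with a two-sided exact permutation p of 0.25 over the signs, the smallest that 3 pairs allow. Neither design could reach the threshold of 0.05. These ratios were not adjusted for library trends in GC content and length. With those trends removed and the block, Ptbp1 and Ptbp2 each changed by -0.21 (log2) at 6 h against 0 h.

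Mbnl1 had the largest decrease of the group. Its level was 89.0, 72.9 and 87.2 CPM at 0 h, 84.0, 71.3 and 78.5 CPM at 1 h, and 69.0, 52.3 and 63.7 CPM at 6 h. The highest library at 6 h lay below the lowest at 0 h and at 1 h. Mbnl1 (ENSMUSG00000027763, chr3:60472830-60629750) changed by -0.43 ± 0.12 (log2, SE, adjusted p = 0.116) without the block and by -0.43 ± 0.05 (adjusted p = 3.34e-05) with it, a fall to 0.741 of the level at 0 h. Against 1 h the change was -0.34 ± 0.05 (adjusted p = 0.000204 with the block), and between 1 h and 0 h it was -0.09 ± 0.05 (adjusted p = 0.378).

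Mbnl2, its paralog, had 88.5, 103 and 83.1 CPM at 0 h, 91.3, 104 and 69.1 CPM at 1 h, and 92.1, 106 and 84.6 CPM at 6 h. The ranges overlapped at all times, with replicate 2 highest at each. At 6 h it had changed by 0.04 ± 0.06 (log2, SE, adjusted p = 0.658 with the block). Whether Mbnl1 and Mbnl2 differ in their response was not tested.

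**Figure D2:**
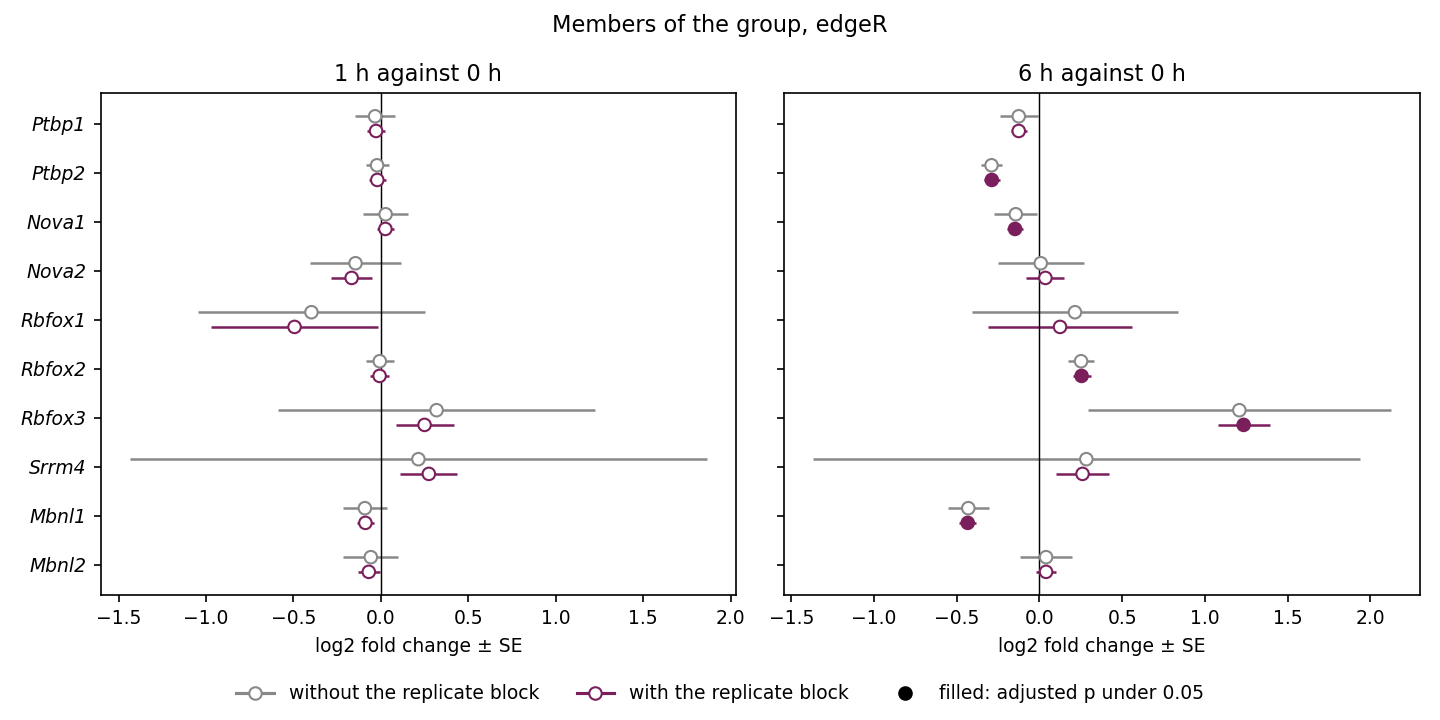
Log2 fold change ± SE of each gene at 1 h (left) and 6 h (right) against 0 h, from edgeR without (grey) and with (purple) the replicate number as a block, filled where the adjusted p was under 0.05. No point is filled at 1 h, and at 6 h Ptbp2, Nova1, Rbfox2, Rbfox3 and Mbnl1 are filled only with the block.

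Nova1 and Nova2 encode KH-domain proteins of neurons. Nova1 had 80.0, 97.9 and 91.3 CPM at 0 h, 81.7, 102 and 90.5 CPM at 1 h, and 70.2, 93.3 and 80.2 CPM at 6 h. The ranges overlapped, with replicate 2 highest at each time, and each replicate was lower at 6 h than at 0 h. Its log2 fold change was -0.14 ± 0.13 (SE, adjusted p = 0.656) without the block and -0.15 ± 0.05 (adjusted p = 0.0286) with it. After removal of the trends in GC content and transcript length the value with the block was -0.06 (adjusted p = 0.456), so the call was lost. Leaving out 1 library at a time in the fit with the block, Nova1 kept its call in 4 of 9 fits, and lost it without replicate 1, 2 or 3 of 0 h or replicate 1 or 3 of 6 h (adjusted p from 0.0604 to 0.133).

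Nova2 had 42.5, 33.96 and 27.1 CPM at 0 h, 39.6, 34.8 and 19.3 CPM at 1 h, and 39.1, 33.0 and 32.2 CPM at 6 h. Replicate 3 at 1 h was the lowest library. Its change at 6 h against 0 h was 0.04 ± 0.12 (log2, SE, adjusted p = 0.842 with the block), and its sign differed among replicates, with 1 of 3 higher. Nova2 (ENSMUSG00000030411, chr7:18925888-18965319) shares exon bases with Gm26821 on the opposite strand, which had 0 reads in all libraries.

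RBFOX proteins bind UGCAUG elements and differ in where they are made, RBFOX2 broadly, RBFOX1 in neurons and muscle, and RBFOX3, the neuronal antigen NeuN, in neurons. Per kb of exon, Rbfox2 was the highest of the 3 genes and Rbfox1 the lowest at each time. Rbfox2 had 93.8, 86.4 and 83.9 CPM at 0 h, 95.5, 86.5 and 81.0 CPM at 1 h, and 104.04, 104.03 and 106 CPM at 6 h. All 3 libraries at 6 h were above all 6 earlier ones, and their spread was small (105 ± 1.40, SD, n = 3, against 88.1 ± 5.18 at 0 h). The log2 fold change was 0.25 ± 0.08 (SE, adjusted p = 0.138) without the block and 0.25 ± 0.05 (adjusted p = 0.00288) with it. Against 1 h it was 0.26 ± 0.05 (adjusted p = 0.00248 with the block).

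Rbfox3 was low at 0 h, most of all in replicate 3, and was higher at 6 h in each replicate. The level was 2.75, 3.68 and 0.673 CPM at 0 h, 3.91, 4.50 and 0.445 CPM at 1 h, and 7.44, 7.47 and 1.53 CPM at 6 h. Replicate 3 was lowest at every time, and at 6 h it lay below replicates 1 and 2 at 0 h, so the ranges overlapped. Behind these values were 199, 272 and 47 reads at 0 h, and 548, 679 and 164 reads at 6 h. The ratio of 6 h to 0 h was 2.70, 2.03 and 2.27 in the replicates. Without the block the log2 fold change was 1.21 ± 0.92 (SE, adjusted p = 0.576), and with the block it was 1.23 ± 0.16 (adjusted p = 6.77e-05), the largest change of the group. Of the tested genes, 98.4% had a smaller SD between replicates.

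Rbfox1 was barely detected, with 12, 16 and 14 reads at 0 h, 16, 14 and 3 reads at 1 h, and 25, 24 and 9 reads at 6 h. These counts correspond to 0.0417 to 0.339 CPM over the 9 libraries. No change passed the threshold, and the log2 fold change at 6 h was 0.12 ± 0.44 (SE, adjusted p = 0.857 with the block). With so wide an SE a modest change could be missed.

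Srrm4 encodes the serine/arginine repetitive protein that promotes microexons in neurons. It had 0.940, 4.72 and 0.0573 CPM at 0 h, 1.19, 5.28 and 0.139 CPM at 1 h, and 1.07, 5.82 and 0.0747 CPM at 6 h. Behind the extremes were 349, 482 and 529 reads in replicate 2 and 4, 10 and 8 reads in replicate 3. Replicate 2 was the highest and replicate 3 the lowest at each time, and no other member differed as much between replicates. After subtraction of the time-point means, the SD of the replicates' means over the time points was 2.80 on the log2 scale. The median of this SD over all tested genes was 0.20, and 99.8% of the tested genes had a smaller one. Its log2 fold change at 6 h was 0.28 ± 1.65 (SE, adjusted p = 0.967) without the block and 0.26 ± 0.16 (adjusted p = 0.233) with it, although each replicate was higher at 6 h than at 0 h. Among the 9 markers of neurons, 5 were likewise highest in replicate 2 and lowest in replicate 3 at each time (Rbfox3, Snap25, Tubb3, Stmn2 and Nefl), and 4 were not (Dcx, Map2, Syt1 and Syp). Rbfox3 is itself a member of the group, and its replicates 1 and 2 were nearly equal at 6 h. The sum over the 9, most of it Map2, had another order, with 1488, 1059 and 972 CPM in replicates 1, 2 and 3 at 0 h, and replicate 1 was highest at 1 h and 6 h as well. The part of neuron markers in the values of Srrm4 was not tested.

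At 1 h, no member passed the threshold. Without the block 0 of 10 were called, where 0.0424% of all genes were called, and with the block 0 of 10, where 3.51% were called. None of the 10 had an unadjusted p under 0.05 in either fit, and DESeq2 called 0 with or without the block. From 1 h to 6 h, 0 of 10 were called without the block (2.14% of all genes) and 3 had an unadjusted p under 0.05. With the block 2 of 10 were higher (18.0% of all genes), Rbfox2 and Rbfox3, and 3 of 10 lower (17.5% of all genes), Ptbp2, Nova1 and Mbnl1. These are the 5 genes called at 6 h against 0 h, and both comparisons share the libraries of 6 h. The CPM ranges of 0 h and 6 h did not overlap for 3 of 10 members (Ptbp2, Rbfox2 and Mbnl1), while 25.0% of all tested genes had ranges that did not overlap.

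Levels of different genes were compared as CPM per kb of the union of their exons. At 0 h the order was Ptbp1 at 47.1 ± 5.42 (SD, n = 3), Ptbp2 at 13.2 ± 0.817, Rbfox2 at 10.8 ± 0.636, Nova1 at 10.3 ± 1.03, Mbnl2 at 7.64 ± 0.867, Mbnl1 at 4.44 ± 0.473, Nova2 at 4.12 ± 0.924, Rbfox3 at 0.407 ± 0.264, Srrm4 at 0.219 ± 0.285 and Rbfox1 at 0.0441 ± 0.0059 CPM per kb. The ranges of Rbfox2 and Nova1 overlapped, and so did those of Mbnl1 and Nova2, of Rbfox3 and Srrm4, and of Srrm4 and Rbfox1. Ranges ignore the replicate numbers, and within each replicate at 0 h Rbfox3 stood above Srrm4. Differences between these neighbours were not tested. Per kb, Ptbp1 stood above Ptbp2 at each time, with a mean of 43.2 ± 5.01 CPM per kb at 6 h against 10.8 ± 0.184 for Ptbp2. At 6 h Rbfox2, at 12.9 ± 0.172 CPM per kb, stood above Ptbp2 without overlap of the ranges. The order depends on the length used. With the longest transcript in place of the union, Ptbp2 (24.6 CPM per kb) stood above Rbfox2 (15.2) at 6 h, again without overlap, and Mbnl2 (16.5 CPM per kb) and Mbnl1 (14.7) stood above Rbfox2 (12.7) at 0 h.

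**Figure D3:**
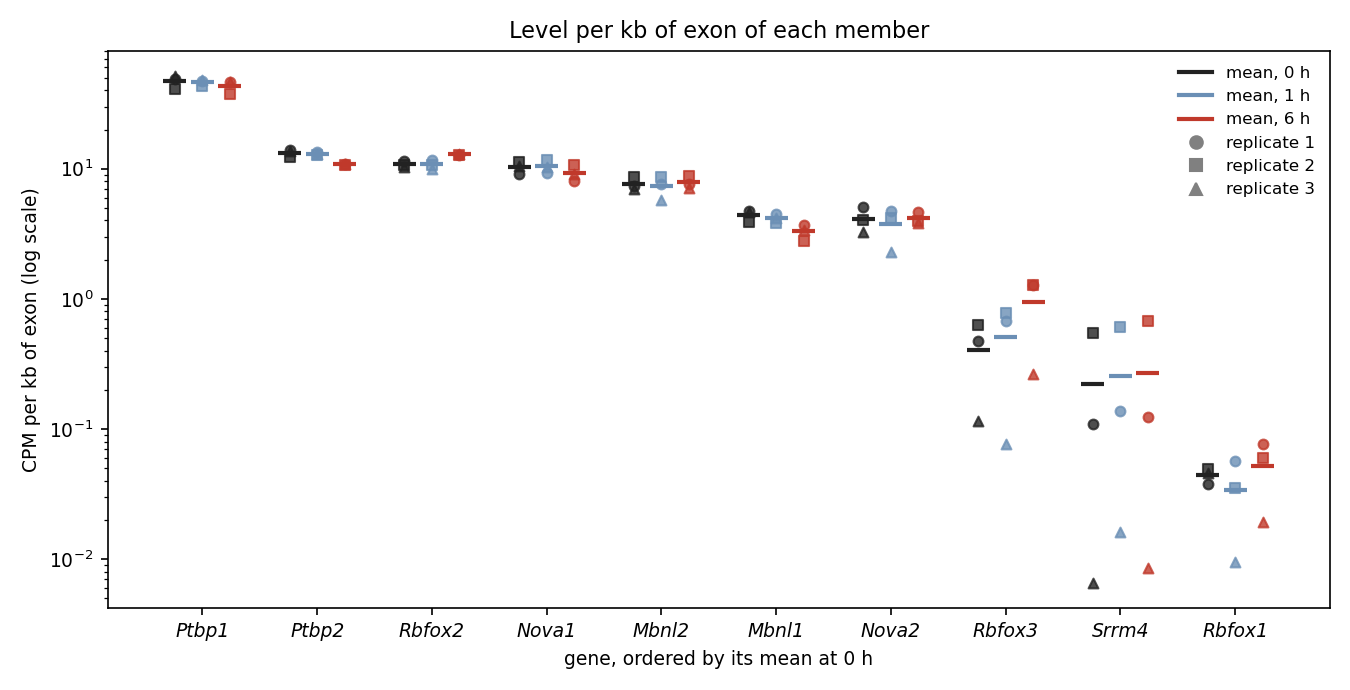
Level of each gene as CPM per kb of the union of its exons (vertical axis, log scale) at each of the 3 time points, with a point for each library and a bar for the mean of 3 libraries. Ptbp1 lies above all others at each time, and Rbfox3, Srrm4 and Rbfox1 lie lowest, and Rbfox3 and Srrm4 have the widest spread between replicates on this axis.

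Genes with a time course like that of a member were found by the root mean square difference of the 9 values of log2 CPM, after each was centred on the mean of its replicate number, among 13606 genes with a mean of at least 1 CPM. Ptbp2 was most like Exoc4 (difference 0.019), Smpd4 (0.019) and mt-Nd4 (0.021). Mbnl1 was most like Dhx15 (0.017), Exoc5 (0.022) and Gjc1 (0.024), and Ptbp1 most like Ndor1 (0.019), C330007P06Rik (0.020) and Ssr3 (0.022). For Srrm4 the nearest genes, Zfp335os (0.113), Tspan8 (0.120) and Nenf (0.121), were farther away.

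The loop of REST and miR-124 around PTBP1 was described with 15 genes, all tested. With the block 3 of 15 were higher (17.4% of all genes) and 4 of 15 lower (17.5% of all genes) at 6 h than at 0 h, and without it 1 of 15 was called, higher (2.42% of all genes in either direction). Their median log2 fold change with the block was 0.04, against -7.8e-05 over all tested genes. Mir124a-1hg, the host transcript of a miR-124 gene, rose at 6 h from near the floor. It had 0.166, 0.243 and 0.1002 CPM at 0 h, 0.172, 0.383 and 0.139 CPM at 1 h, and 1.51, 2.74 and 0.924 CPM at 6 h, with no overlap between 6 h and the earlier times. Its log2 fold change was 3.33 ± 0.56 (SE, adjusted p = 0.0291) without the block and 3.32 ± 0.22 (adjusted p = 3.66e-07) with it, a 9.95-fold rise. A host transcript does not measure the mature microRNA. Mir124-2hg, a second host gene, had 9.80, 7.77 and 6.13 CPM at 0 h and 10.7, 9.06 and 6.94 CPM at 6 h, and its log2 fold change of 0.17 did not pass the threshold with the block (adjusted p = 0.165) but did once GC and length trends were removed as well (0.23, adjusted p = 0.0423). Against 1 h it was higher at 6 h with the block (0.51, adjusted p = 0.00103). In the same libraries Ptbp1 was lower at 6 h in each replicate. As given above, its change did not pass the threshold in the fits of all libraries without or with the block, and passed in some alternatives. A link between these host transcripts and Ptbp1 was not tested.

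Rest had 68.3, 59.7 and 63.7 CPM at 0 h, 59.1, 53.98 and 52.3 CPM at 1 h, and 53.9, 46.2 and 53.2 CPM at 6 h, and no library at 6 h reached the lowest at 0 h. With the block the log2 fold change at 6 h was -0.32 ± 0.05 (SE, adjusted p = 0.000548), and without it -0.32 ± 0.09 (adjusted p = 0.107). Its partners in the repressor complex moved in different directions. The histone deacetylases Hdac1 (-0.27 ± 0.05, log2, adjusted p = 0.000682) and Hdac2 (-0.22 ± 0.05, adjusted p = 0.004) were lower with the block. Rcor2, a corepressor of the CoREST family, was higher at 6 h (0.37 ± 0.05, adjusted p = 0.000185 with the block). At 1 h, Rcor2 (-0.29 ± 0.05, adjusted p = 0.0103) and Rcor1 (-0.22 ± 0.05, adjusted p = 0.0392) were the 2 of 15 genes of the loop called with the block, both lower (3.51% of all genes in either direction). Without the block 0 of 15 were called (0.0424% of all genes), with 3 at an unadjusted p under 0.05. DESeq2 with the block called 5 of 15 at 1 h, these 2 and Rcor3, Mir124-2hg and Rest, where it called 929 genes in all. Without the block it called 0 of 15, where it called 99 genes in all. Rest was lower in 3 of 3 replicates at 1 h (log2 fold change -0.21 ± 0.05, SE, adjusted p = 0.0519 in edgeR and 0.0298 in DESeq2, both with the block). The change of Rcor2 from 1 h to 6 h passed the threshold without the block as well (0.66 ± 0.12, adjusted p = 0.0355), but not once any 1 library was left out.

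**Figure D4:**
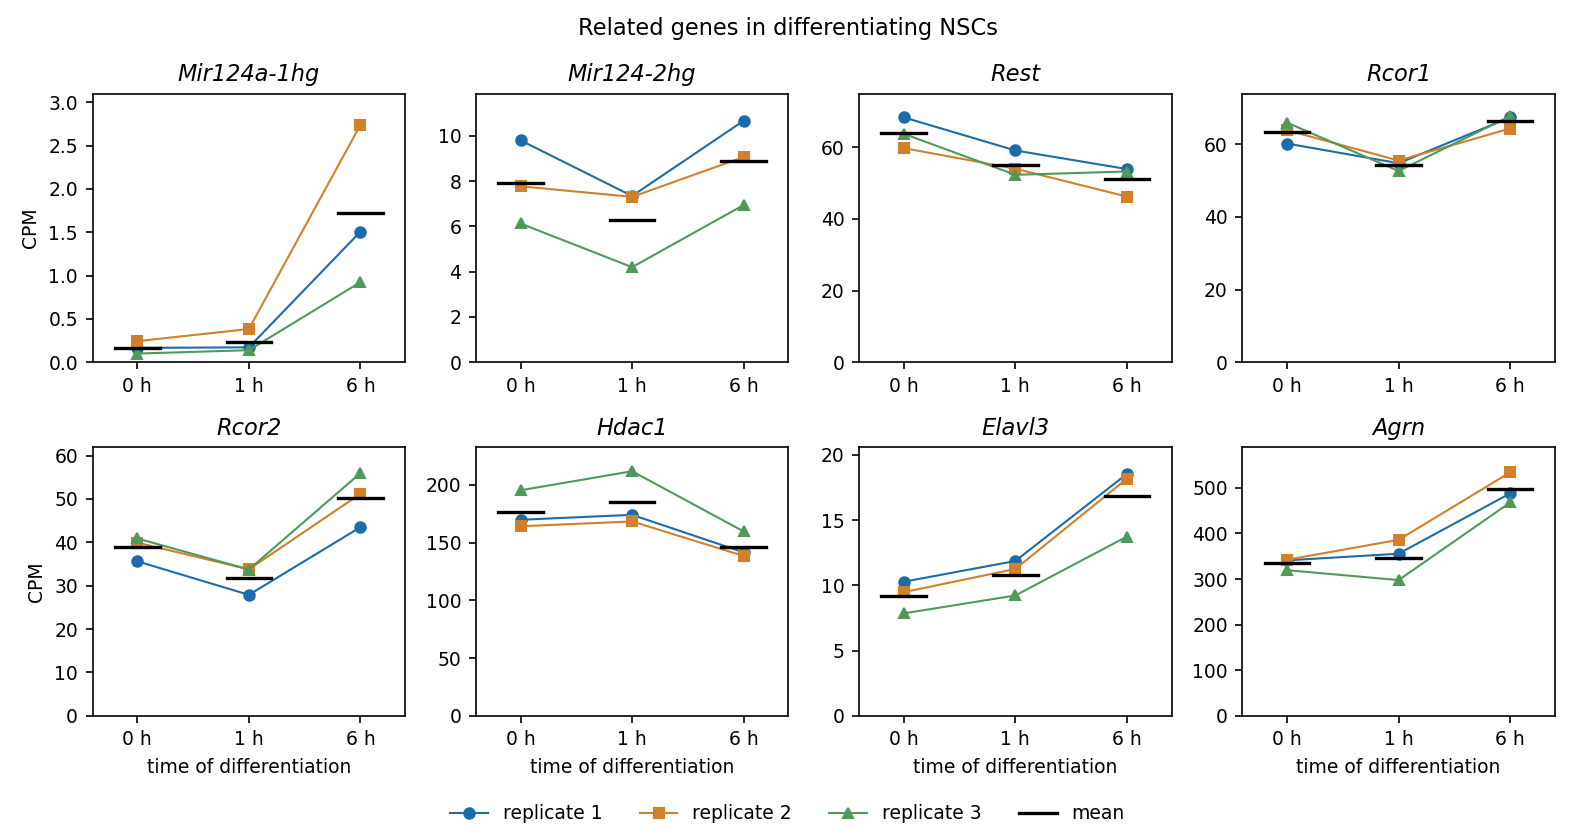
CPM (vertical axis, from 0) of genes of the REST and miR-124 loop, of Elavl3 and of Agrn by hours of differentiation (evenly spaced), with points joined for libraries of the same replicate number and bars for means of 3 libraries. Mir124a-1hg, Elavl3 and Agrn lie highest at 6 h in all 3 replicates, and Rcor1 and Rcor2 lie lowest at 1 h.

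Of 29 other splicing regulators 25 were tested. With the block 3 of 25 were higher at 6 h than at 0 h, where 17.4% of all genes were higher, and 12 of 25 were lower, where 17.5% were lower. Without it 1 was higher and 1 lower, where 2.42% of all genes were called. The median log2 fold change was -0.17 in either fit, and 21 of the 25 values were below 0. Elavl3, a neuronal RNA-binding protein of the Hu family, had 10.3, 9.47 and 7.85 CPM at 0 h and 18.5, 18.2 and 13.7 CPM at 6 h. It was higher in both fits (log2 fold change 0.87 ± 0.17, SE, adjusted p = 0.0405 without the block). Matr3, which encodes matrin 3, a nuclear protein that binds PTBP1, had 404, 397 and 396 CPM at 0 h and 328, 306.6 and 307.1 CPM at 6 h, and was lower in both fits (-0.35 ± 0.06, adjusted p = 0.034 without the block). With the block, Rbm20 was higher (0.45 ± 0.07, adjusted p = 0.000406) and Rbm24 lower (-0.38 ± 0.07, adjusted p = 0.000649), both known for splicing in muscle. Of 6 Celf genes 1 was lower (Celf1), of 3 Khdrbs genes 2 were lower (Khdrbs1 and Khdrbs3), and of 3 Elavl genes 1 was higher and 1 lower (Elavl2).

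**Figure D5:**
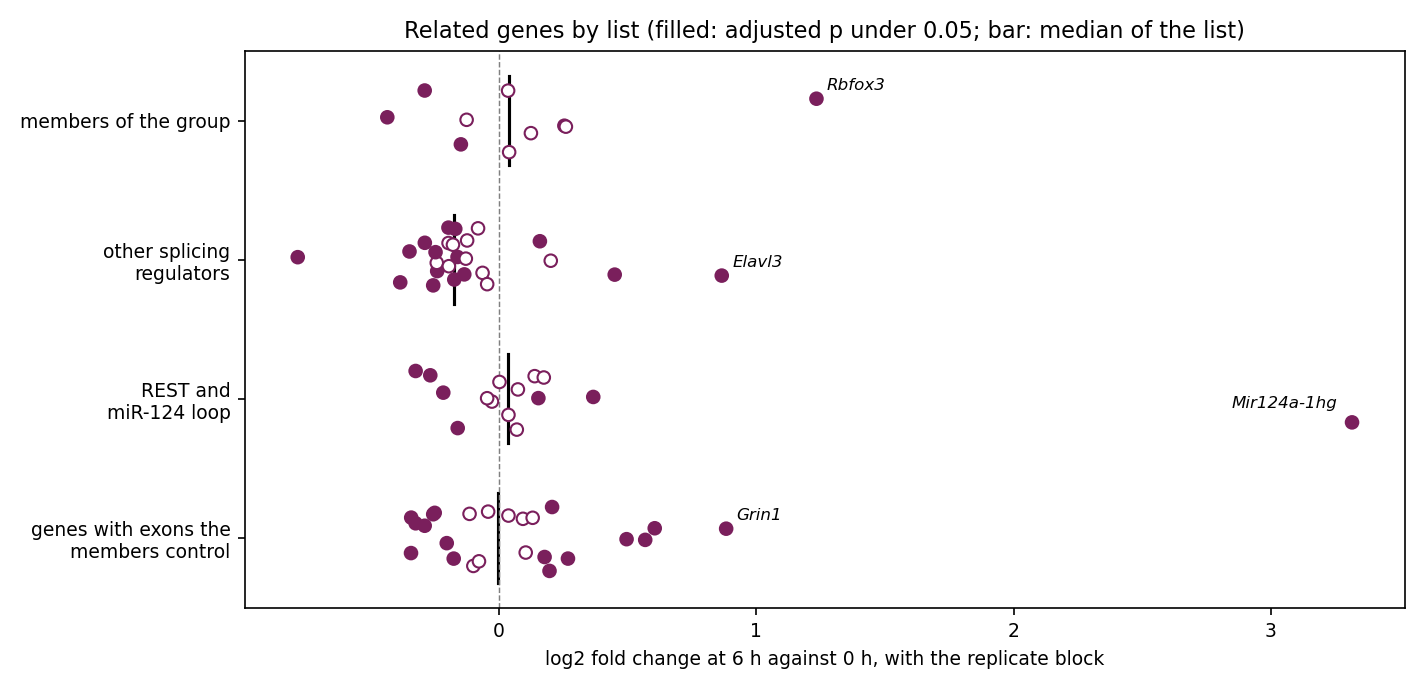
Log2 fold change at 6 h against 0 h with the replicate block (horizontal axis) of each tested gene of the 4 lists, filled where the adjusted p was under 0.05, with a bar for the median of each list. The bar of the other splicing regulators lies at -0.17 and those of the other lists lie near 0, with Mir124a-1hg far to the right.

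Of 25 genes whose exons are known to be controlled by these proteins 24 were tested, and the whole-gene counts say nothing of those exons. With the block 8 of 24 were higher and 8 of 24 lower at 6 h, against 17.4% and 17.5% of all genes, and without it 1 was called, higher, against 2.42%. Their median log2 fold change with the block was -0.0019. Ptbp2, Rest and Kdm1a belong to this list and to those described above. Agrn, whose Z exons NOVA proteins include, was the gene called in both fits, with 341, 342 and 320 CPM at 0 h and 488, 534 and 468 CPM at 6 h (log2 fold change 0.57 ± 0.10, SE, adjusted p = 0.0358 without the block). With the block, the largest changes besides Agrn were those of the receptor subunit Grin1 (0.88 ± 0.15, adjusted p = 0.000655), the cell fate determinant Numb (0.61 ± 0.06, adjusted p = 1.54e-05) and the synaptic protein Snap25 (0.50 ± 0.15, adjusted p = 0.019). None of these 3 passed the threshold without the block. In the fit without the block, this list and those of other splicing regulators and of the REST and miR-124 loop each had 0 called genes at 6 h against 0 h once any library of 0 h, replicate 1 or 2 of 6 h, or replicate 1 of 1 h was left out.

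Markers of NSCs were high, with summed levels of 9 genes of 6658 to 8292 CPM at 0 h and 5512 to 7405 CPM at 6 h. With the block 4 of the 9 were higher (17.4% of all genes) and 2 lower (17.5% of all genes) at 6 h. Without it 2 were higher and 0 lower, where 2.42% of all genes were called. The sum was lower at 6 h in each replicate. The same shares of all genes apply to the other marker lists below, which had 0 genes called without the block. The 9 neuron markers summed to 972 to 1488 CPM at 0 h and 1009 to 1572 CPM at 6 h, most of it Map2 (926 to 1464 CPM at 0 h). Among them, Dcx was at 0.570 to 0.961 CPM and Stmn2 at 0.0280 to 0.473 CPM at 6 h. With the block 4 neuron markers were higher at 6 h (Tubb3, Syt1, Snap25 and Rbfox3, which is also a member of the group) and 1 lower (Nefl). The 6 astrocyte markers summed to 329 to 429 CPM at 0 h and 366 to 443 CPM at 6 h, with 1 higher and 1 lower. The 5 oligodendrocyte markers summed to 6.29 to 6.84 CPM at 0 h and 7.71 to 8.22 CPM at 6 h, also with 1 in each direction. Microglia markers summed to at most 0.526 CPM in any library, with C1qa at 0 in all 9. Endothelial markers summed to 1.45 to 4.24 CPM, with Cldn5 at 0 in 8 of 9 libraries. The 6 markers of muscle and mural cells summed to 49.2 to 95.3 CPM at 0 h and 27.0 to 46.8 CPM at 6 h, nearly all of it Acta2. Of these 6 markers 3 were tested, and with the block 1 was higher and 1 lower at 6 h. The lower one was Acta2 (log2 fold change -1.06, adjusted p = 4.1e-08). The part of other cell types in the values of the splicing regulators was not tested.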

How the data were processed

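The deposited counts are raw numbers of reads per Ensembl gene, which the authors made from paired-end reads with STAR 2.5.3a on mm10 (GRCm38) and did not normalise. FastQC and DESeq2 1.22.1 are also named in the submitters' processing notes, and the strand setting and annotation release of the counting are not given in the sources used here. Genes were kept with filterByExpr (minimum count 10, minimum total count 15), scaled with TMM and fitted over 9 libraries with the quasi-likelihood test of edgeR 4.0.16 (R 4.3.3) on time point, with Benjamini-Hochberg adjustment and a threshold of 0.05. A second fit, with replicate number as blocking factor, stands beside it. After subtraction of the means of the time points, libraries with the same number correlated at 0.733 to 0.800 in 9 pairs, and at -0.462 to -0.314 in 18 pairs with other numbers. As deviations sum to 0 within a time point, the negative values follow from the positive ones and add nothing to them. The numbers come from the labels, which do not state what is shared or whether cultures came from separate mice. P-values without the block therefore measure the spread between these libraries. Those with it measure the spread left among them once differences between replicate numbers are removed.

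Other alternatives were DESeq2 1.42.0, removal of trends in GC content and exon length (splines with 4 degrees of freedom, 99.6% of tested genes), RLE scaling, library totals, no filter, a mean of at least 1 CPM, the 6 libraries compared and leaving out each library. No 2 libraries agreed within sampling noise (chi-square per degree of freedom at least 86.6 within time points). Symbols and exons came from GENCODE M21, which held 48144 of 48526 identifiers, and Qki was found as Qk through RefSeq synonyms. The fits were tested on simulated data. The members, lists, markers, tests and the rule for named genes (all members; list genes by size of change, by passing the test without the block, or as Rest, Elavl3, Celf and Khdrbs genes; nearest genes of 4 members) were chosen with earlier results of these data known. Python 3.11.15, pandas 2.3.3, scipy 1.17.1 and matplotlib 3.10.9 were used.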

Additional observations from a re-analysis of the deposited data

How the results depend on the processing

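With 3 libraries per time point, the pairing of libraries by replicate number decided most calls, and what the numbers share is not given. Rbfox1, the member with the fewest reads, had no change past the threshold, and its wide SE means that a modest change could be missed. Whole-gene counts do not measure splicing, and where a value below changed with a setting the cause was not tested. At 6 h against 0 h the number of members called was 0 without the replicate block, and 0 with RLE scaling, library totals, no filter, only the 6 libraries compared or any library left out. It was 5 in edgeR with the block, 2 in DESeq2, 5 in DESeq2 with the block, 5 with the block and trends in GC content and length removed, and 1 with a minimum mean of 1 CPM. At 6 h against 1 h the corresponding fits called 5, 2, 5 and 6 members, and every other setting called 0. At 1 h against 0 h every setting called 0. In the fit with the block, leaving out 1 library gave 4 to 6 called members in both comparisons of 6 h. Ptbp2, Rbfox2, Rbfox3 and Mbnl1 were called at 6 h against 0 h in each of those 9 fits. Ptbp1 gained a call without 1 h replicate 3 (log2 fold change -0.12, adjusted p = 0.0221 with the block). Over the 6 leave-outs the log2 ratio of Ptbp2 to Ptbp1 differed between 6 h and 0 h by -0.25 to -0.12. A test of its changes within pairs, chosen after seeing the data, gave an exact permutation p of 0.25 in place of 0.2.

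The number of genes called at 6 h against 0 h was 456 without the block, 6581 with it, 1742 in DESeq2, 6126 in DESeq2 with the block, 6967 with the block and trends removed, 205 without a filter, 113 with only the 6 libraries compared, 39 to 508 with 1 library left out, and 4350 to 8051 with 1 library left out and the block. At 1 h against 0 h it was 8, and 661, 99, 929 and 704 in the same 4 alternatives, 4 with only the 6 libraries compared, 1 to 7 with 1 library left out, and 213 to 886 with the block as well. At 6 h against 1 h it was 404, and 6710, 1695, 6285 and 7308 in the same 4 alternatives, 220 without a filter, 21 with only the 6 libraries compared, and 30 to 199 with 1 library left out.

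Signs of members' log2 fold changes reversed only where neither the value nor its alternative passed the threshold. At 6 h against 0 h, Nova2 became -0.035 with the block and trends removed. With 1 library left out, Nova2 ran from -0.14 to 0.19, Rbfox1 from -0.17 to 0.63, Srrm4 from -1.76 to 2.21 and Mbnl2 from -0.046 to 0.14, and with the block Nova2 ran from -0.16 to 0.14, Rbfox1 from -0.41 to 0.66 and Mbnl2 from -0.0019 to 0.092. At 1 h against 0 h, Ptbp2 became 0.055 with the block and trends removed, and Rbfox2 became 0.00020 in DESeq2, 0.00036 with RLE scaling and 0.040 with the block and trends removed. With 1 library left out, Ptbp1 ran from -0.12 to 0.035, Ptbp2 from -0.068 to 0.012, Nova1 from -0.063 to 0.11, Nova2 from -0.35 to 0.11, Rbfox1 from -0.94 to 0.040, Rbfox2 from -0.068 to 0.051, Rbfox3 from -0.13 to 0.83, Srrm4 from -1.54 to 2.15 and Mbnl2 from -0.20 to 0.094. With the block these ranges were -0.081 to 0.0027 for Ptbp1, -0.053 to 0.00073 for Ptbp2, -0.30 to 0.024 for Nova2, -0.046 to 0.041 for Rbfox2 and -0.12 to 0.027 for Mbnl2. At 6 h against 1 h, Srrm4 became -0.014 with the block, -0.073 in DESeq2 with the block and -0.057 with the block and trends removed. With 1 library left out, Ptbp1 ran from -0.14 to 0.0072, Nova2 from -0.10 to 0.36, Srrm4 from -1.98 to 1.81 and Mbnl2 from -0.052 to 0.24, and with the block Srrm4 ran from -0.24 to 0.044.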
